A study of Mus musculus with 6 samples.

Results

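Krüppel-like factors are DNA-binding proteins that read GC-rich and CACCC-type sequences in promoters through a row of zinc fingers at the end of the protein, and activate or repress transcription according to the partners that the rest of the protein binds. In muscle tissue some of them, such as Klf15 and Klf9, are known as targets of the glucocorticoid receptor and of the circadian clock. Others, such as Klf4, Klf6 and Klf10, are known for rapid induction by growth factors, injury or blood flow. The 10 genes examined here (Klf2, Klf3, Klf4, Klf5, Klf6, Klf9, Klf10, Klf11, Klf13 and Klf15) were taken by gene name from a table of 43346 genes. All 10 were among the 15583 genes that passed the low-count filter.

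The libraries were made from polyadenylated RNA of gastrocnemius, a calf muscle, of 6-month-old male mice with both Vdr alleles floxed around exon 3 and with an actin iCre transgene (ACTA1-cre/Esr1*), a Cre recombinase that needs tamoxifen and is driven by the promoter of the human skeletal actin gene. The knockout group was 3 such mice given tamoxifen (100 mg/kg), and the vehicle group was 3 such mice given no tamoxifen. The floxed alleles and the transgene were thus shared by both groups. Mice of both groups were injected for 5 days with a volume of 75 microlitres and 10% ethanol. The vehicle was 10% ethanol in corn oil. All mice of both groups had a diet with 3.4 IU of vitamin D3 per g and 0.81% calcium. Muscle was taken after strength and glucose tests done 10 days after the last injection. Deletion of Vdr, Cre activity and tamoxifen exposure cannot be told apart in these samples, because all mice given tamoxifen carried both the transgene and the floxed alleles. Neither tamoxifen-treated mice without Cre nor tamoxifen-treated Cre mice with unfloxed Vdr were analysed here.

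Libraries held 30486874 to 39909535 counted reads. Vdr, the targeted gene, had 52, 27 and 40 reads in knockout libraries and 46, 48 and 61 in vehicle libraries (log2 fold change -0.37, SE 0.37; edgeR adjusted p = 0.848), so its gene-level count did not separate the groups. Markers of the skeletal muscle fibre such as Acta1 and Ckm were abundant in every library, with a sum over 5 genes of 45048 to 72149 CPM (read counts scaled to library size, with library sizes adjusted by the trimmed mean of M values, TMM) in knockout and 54500 to 68347 CPM in vehicle libraries. The libraries differed in fibre composition within groups: the sum of 10 slow-fibre markers was 6201, 32826 and 10352 CPM in knockout replicates 1, 2 and 3 and 10164, 1483 and 1233 CPM in vehicle replicates 1, 2 and 3. All 10 slow-fibre estimates were higher in knockout and all 10 fast-fibre estimates lower, none called by edgeR. Every pair of libraries differed by more than counting error.

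Promoter sequences from RefSeq (GRCm38.p6) were matched by symbol for 8 of the 10 genes. They are shown for Klf15, Klf4 and Klf6, the matched members with the smallest p in the comparison, and for Klf2, whose level followed that of Klf4 within each group. The windows lie within the 250 bases before the RefSeq start, outside the gene as listed with the counts, which shortens the Klf2 window to 221 bases. They cover chr6:90462326-90462575 on the plus strand for Klf15, chr4:55532476-55532725 on the minus strand for Klf4, chr13:5861239-5861488 on the plus strand for Klf6 and chr8:72318812-72319032 on the plus strand for Klf2. Capitals mark the GC box GGGCGG, the CACCC box CACCC and the E-box CACGTG on either strand, and overlapping matches run together.
Klf15 promoter: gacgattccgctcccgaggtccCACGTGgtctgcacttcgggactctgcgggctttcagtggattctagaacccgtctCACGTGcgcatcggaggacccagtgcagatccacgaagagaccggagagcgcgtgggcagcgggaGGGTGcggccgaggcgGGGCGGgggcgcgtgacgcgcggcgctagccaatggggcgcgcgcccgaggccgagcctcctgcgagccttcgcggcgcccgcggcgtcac
Klf4 promoter: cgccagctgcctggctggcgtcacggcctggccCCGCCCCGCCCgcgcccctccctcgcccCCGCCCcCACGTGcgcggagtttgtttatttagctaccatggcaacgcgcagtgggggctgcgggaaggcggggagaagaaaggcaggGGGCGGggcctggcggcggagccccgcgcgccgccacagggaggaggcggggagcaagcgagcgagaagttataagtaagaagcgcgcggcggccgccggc
Klf6 promoter: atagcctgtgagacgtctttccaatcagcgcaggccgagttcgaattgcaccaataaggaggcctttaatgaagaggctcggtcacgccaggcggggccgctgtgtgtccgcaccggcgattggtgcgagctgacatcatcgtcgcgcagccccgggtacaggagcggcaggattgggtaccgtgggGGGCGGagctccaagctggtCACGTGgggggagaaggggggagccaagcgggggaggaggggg
Klf2 promoter: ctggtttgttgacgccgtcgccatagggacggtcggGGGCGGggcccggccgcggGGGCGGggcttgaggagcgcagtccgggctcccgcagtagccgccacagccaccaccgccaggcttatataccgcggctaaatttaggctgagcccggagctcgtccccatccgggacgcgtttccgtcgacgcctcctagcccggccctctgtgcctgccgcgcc

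Motifs were counted over the full 250 bases before the start of each gene, for Klf2 too. Base composition was counted over the same bases, except for Klf2, where it covers the 221 bases printed above. The 8 member promoters held 59.6% to 78.4% G and C, against a median of 52.4% over 32851 promoters of the same 250 bases. A GC box stood in 7 of the 8 (all but Klf9), against 32.7% of all promoters, and a CACCC box in 5 of the 8, against 52% of all. The CACCC box of Klf2 begins 19 bases before the start, outside the stretch printed above. The E-box CACGTG, the sequence read by clock proteins and by Myc, was found in 4 of the 8 against 6.02% of all promoters. Klf15 held 2 of them, beginning 228 and 172 bases before the start, Klf4 held 1 beginning at 182 bases, Klf6 held 1 at 43 bases and Klf11 held 1 at 214 bases. A MEF2 box was found in the Klf2 promoter alone among the 8, beginning 118 bases before the start, and in 2.92% of all promoters. The CArG box of serum response factor was in 0 of the 8 and in 1.47% of all. The cyclic AMP response core TGACG was in 5 of the 8 and 17.8% of all, and CCAAT was in 5 of the 8 and 33.8% of all. These matches are descriptions of letters, and binding was not measured.

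Levels between genes were compared per length with the deposited FPKM values (read counts scaled to gene length and to the library total). Klf9 was the most abundant member at a mean of 41.1 FPKM over the 6 libraries, followed by Klf4 at 37.4, Klf10 at 26.1 and Klf15 at 21.3 FPKM. These 4 genes supplied 76.2% to 79.4% of the summed FPKM of the family in every library. Klf6 followed at 12.5, Klf13 at 9.25, Klf2 at 9.22, Klf3 at 2.98, Klf11 at 1.33 and Klf5 at 0.488 FPKM. The order from Klf15 down to Klf6 and from Klf2 down to Klf5 held in 6 of 6 libraries, whereas the other neighbours changed places: Klf9 exceeded Klf4 and Klf4 exceeded Klf10 in 5 of 6 libraries each, Klf10 exceeded Klf15 in 4, Klf6 exceeded Klf13 in 5 and Klf13 exceeded Klf2 in 4. Klf15 made up 14.9%, 22.4% and 14.3% of the family's FPKM in knockout libraries and 11.5%, 8.94% and 9.51% in vehicle libraries. A share depends on the other members too. Klf4 made up 13.7%, 19.3% and 20.0% in knockout and 23.0%, 21.3% and 36.1% in vehicle libraries. For Klf10 the shares were 12.7%, 9.66% and 14.4% in knockout and 16.6%, 21.8% and 18.7% in vehicle libraries. The FPKM of Klf15 itself overlapped between groups, at 18.3 in knockout replicate 1 and 19.3 in vehicle replicate 3. Levels per length rest on the gene models of the table. For Klf5 and Klf3 these hold 1721 and 2479 bases, where GENCODE vM21 merges 5201 and 11243 exonic bases. For Klf9 and Klf10 they hold 3263 and 3045 bases against 4815 and 4179, while Klf4 has 3049 in both. The order of Klf9, Klf4 and Klf10 was not checked with the longer models. In vehicle libraries alone the mean was higher for Klf4, at 48.0 FPKM, than for Klf9, at 38.5 FPKM.

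**Figure D1:**
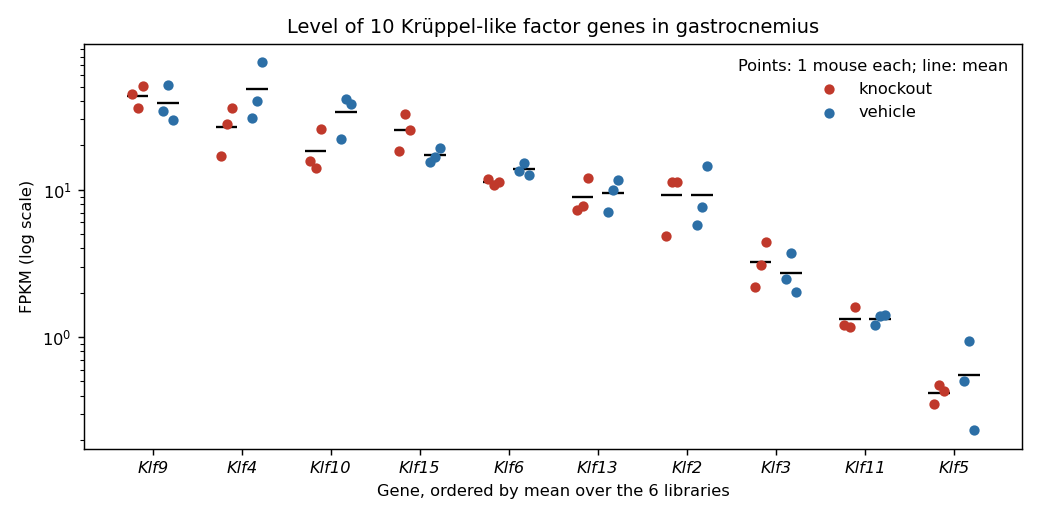
FPKM (log scale) of the 10 Krüppel-like factor genes, ordered by mean level, with 1 point per mouse (knockout left and red, vehicle right and blue) and a line at each group mean. Klf9, Klf4, Klf10 and Klf15 lie highest, and Klf5 is lowest at a mean of 0.488 FPKM.

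No member passed the threshold of an adjusted p below 0.05 between knockout and vehicle in edgeR's quasi-likelihood test, and 0% of the 15583 genes tested did (0 genes). At an adjusted p below 0.1 there were again 0 members, beside 0.0449% of all genes (7 genes). The members of smallest p were Klf10, Klf4 and Klf6, with lower estimates in knockout, and Klf15, with a higher one. At an unadjusted p below 0.05 there were 3 members, Klf10, Klf4 and Klf15, beside 7.44% of all genes tested (1159 genes). Of these, 1 member was higher, beside 4.02% of all genes, and 2 were lower, beside 3.42%. DESeq2 also called 0 members at an adjusted p below 0.05, beside 0.699% of all genes (109 genes). It put Klf10, Klf4 and Klf15 at an unadjusted p below 0.05, beside 8.43% of all genes. Estimates were above 0 for 3 of 10 members and for 52.9% of all genes, and below 0 for 7 members and for 47.1% of all genes. The median log2 fold change was -0.17 over the members and 0.02 over all genes. The members varied somewhat more between mice of a group than the typical gene, with a median within-group SD of 0.40 log2 CPM against 0.32 over all genes. In bulk tissue, fewer cells of a type and less RNA per cell cannot be told apart.

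**Figure D2:**
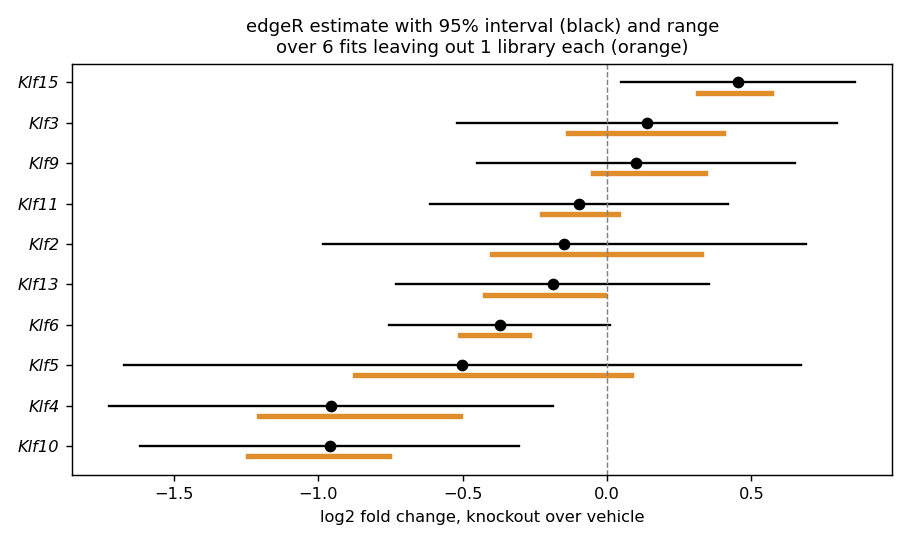
Log2 fold change of knockout over vehicle for each member (black point) with its 95% interval (black line) and the range of the estimate over 6 fits that each left out 1 library (orange line). The intervals of Klf15, Klf4 and Klf10 lie off 0 before adjustment, and the leave-one-out ranges of Klf15, Klf6, Klf4, Klf10 and, narrowly, Klf13 keep 1 sign.

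Klf10, a repressor induced early by transforming growth factor beta, lies on chromosome 15 (chr15:38294413-38300707, mm10, minus strand) and was the member with the smallest p. It had 52.1, 37.6 and 73.7 CPM in knockout libraries and 70.0, 128 and 121 CPM in vehicle libraries. The groups overlapped through knockout replicate 3, which lay just above vehicle replicate 1. Klf10 averaged 54.5 ± 18.1 CPM in knockout and 106 ± 31.4 CPM in vehicle libraries (SD, n = 3 each), with a fitted log2 fold change of -0.96 (SE 0.29, 95% interval -1.62 to -0.31; edgeR adjusted p = 0.604). Its unadjusted p ranked 222 among all genes, and DESeq2 gave an adjusted p of 0.121. Klf11, the other factor of the early-response pair with Klf10, had 5.64, 4.37 and 6.36 CPM in knockout and 5.30, 5.97 and 6.23 CPM in vehicle libraries. The groups overlapped widely, and its log2 fold change was -0.10 (95% interval -0.61 to 0.42; edgeR adjusted p = 0.947), an interval that still holds decreases of the size of Klf6's estimate.

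Klf6, which is induced in injured tissue and lies at chr13:5861489-5870393, had 54.7, 39.8 and 44.9 CPM in knockout libraries and 59.1, 65.6 and 55.6 CPM in vehicle libraries. All 3 knockout libraries lay below all 3 vehicle libraries, as they did with 4 scalings of the counts (TMM, library total, DESeq2 size factors and upper quartile). The gap between knockout replicate 1 and vehicle replicate 3 was small beside the spread within groups. Klf6 averaged 46.5 ± 7.58 CPM in knockout and 60.1 ± 5.11 CPM in vehicle libraries (SD, n = 3 each), and its log2 fold change was -0.37 (SE 0.17; edgeR adjusted p = 0.675). Groups that did not overlap in either direction made up 12.3% of all genes tested, and 2 of the 10 members were among them, Klf6 and Klf15. Klf6 was the 1 lower member, beside 6.48% of all genes, and Klf15 the 1 higher member, beside 5.83%.

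Klf4 and Klf2 are induced by laminar blood flow in endothelium, and Klf4 also acts in smooth muscle and in stem cells. Klf4 (chr4:55527143-55532466) had 56.5, 75.1 and 103 CPM in knockout libraries and 97.0, 125 and 232 CPM in vehicle libraries. The groups overlapped between knockout replicate 3 and vehicle replicate 1, and vehicle replicate 3 stood well above the rest. The means were 78.1 ± 23.1 CPM in knockout and 151 ± 71.6 CPM in vehicle libraries (SD, n = 3 each), with a log2 fold change of -0.96 (SE 0.34, 95% interval -1.72 to -0.19; edgeR adjusted p = 0.640). Without vehicle replicate 3 the Klf4 estimate was -0.51, and over the other fits that left out 1 library it lay between -1.20 and -0.77. Klf2 had 9.89, 18.4 and 19.7 CPM in knockout and 11.1, 14.4 and 27.7 CPM in vehicle libraries. Its groups overlapped throughout, at a log2 fold change of -0.15 (95% interval -0.98 to 0.69; edgeR adjusted p = 0.950).

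Klf15, which drives breakdown of branched-chain amino acids and use of lipid in muscle, lies at chr6:90462576-90475238 and was the member with the highest fold change. It had 50.83, 72.46 and 60.74 CPM in knockout libraries and 40.32, 43.33 and 50.74 CPM in vehicle libraries. The knockout libraries all lay above the vehicle libraries, but knockout replicate 1 and vehicle replicate 3 were almost level, and with DESeq2 size factors, upper-quartile factors or library totals the groups overlapped, a check added after seeing the data. Klf15 averaged 61.3 ± 10.8 CPM in knockout and 44.8 ± 5.36 CPM in vehicle libraries (SD, n = 3 each), and the knockout level was 1.37-fold that of vehicle, a log2 fold change of 0.45 (SE 0.18, 95% interval 0.05 to 0.86; edgeR adjusted p = 0.645). The highest Klf15 level was in knockout replicate 2, the library with the most slow-fibre RNA, and vehicle replicate 1, with 10164 CPM of slow-fibre markers, had the lowest. The part of fibre composition in the Klf15 difference was not tested.

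Klf9, another glucocorticoid-induced factor, had 159, 104 and 155 CPM in knockout libraries and 117, 171 and 102 CPM in vehicle libraries. High and low libraries occurred in both groups, and the log2 fold change was 0.10 (95% interval -0.45 to 0.65; edgeR adjusted p = 0.947). Klf13, its close relative in sequence, had 59.9, 51.2 and 84.5 CPM in knockout and 55.0, 76.2 and 91.8 CPM in vehicle libraries, with a log2 fold change of -0.19 (95% interval -0.73 to 0.35; edgeR adjusted p = 0.886). In Klf13, too, each group held both low and high libraries.

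Klf3, a repressor that recruits C-terminal binding protein, had 5.96, 6.74 and 10.3 CPM in knockout libraries and 6.35, 9.37 and 5.19 CPM in vehicle libraries, which overlapped (log2 fold change 0.14, SE 0.29; edgeR adjusted p = 0.940). In GENCODE vM21 an antisense gene shares 404 exonic bases with Klf3. Whether these bases lie in the shorter gene model that was counted was not checked. Since the strand setting of the counting is not given either, reads of the antisense gene may be among those of Klf3. Klf5, a regulator of lipid metabolism and of smooth muscle growth, was close to the limit of the libraries with 23, 25 and 26 reads in knockout and 29, 60 and 16 reads in vehicle libraries. The vehicle libraries held both the highest and the lowest Klf5 level, 1.64 and 0.417 CPM, while the knockout libraries lay between 0.669 and 0.723 CPM. Its log2 fold change was -0.50 (95% interval -1.67 to 0.67; edgeR adjusted p = 0.852).

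**Figure D3:**
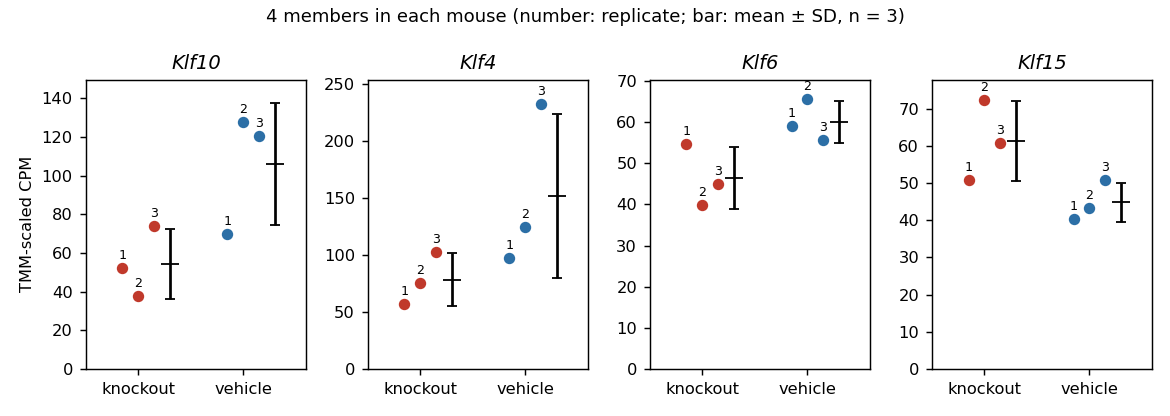
TMM-scaled CPM in each mouse for Klf10, Klf4, Klf6 and Klf15, with knockout left (red) and vehicle right (blue), replicate numbers above the points and bars giving mean ± SD (n = 3). Klf6 and Klf15 do not overlap between groups at this scaling, and Klf10 and Klf4 overlap through knockout replicate 3 and vehicle replicate 1.

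The members did not move as a block across the 6 mice. Over all libraries the most alike pair was Klf11 and Klf13, with a Pearson r of 0.88 for log2 CPM, followed by Klf4 and Klf10 at 0.81. Each of these was the closest member to the other, and Klf10 was also the closest to Klf6 at 0.73. Klf4 was the closest to Klf2 at 0.75, Klf3 and Klf9 were closest to each other at 0.67, Klf3 was the closest to Klf5 at 0.62 and Klf2 was the closest to Klf15 at 0.46. With group means subtracted the order changed: Klf2 and Klf4 were at 0.96, Klf10 and Klf13 at 0.94, Klf10 and Klf11 at 0.90 and Klf11 and Klf13 at 0.87, whereas Klf4 and Klf10 were at 0.60 and Klf6 and Klf10 at 0.30. Klf6 and Klf15 ran opposite to each other at -0.95 over all libraries and -0.87 with group means subtracted. These r values describe 6 libraries that share library scaling and the treatment contrast. Vehicle replicate 2 was the highest library for 4 members and vehicle replicate 3 for 3, whereas knockout replicate 2 was the lowest for 4.

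**Figure D4:**
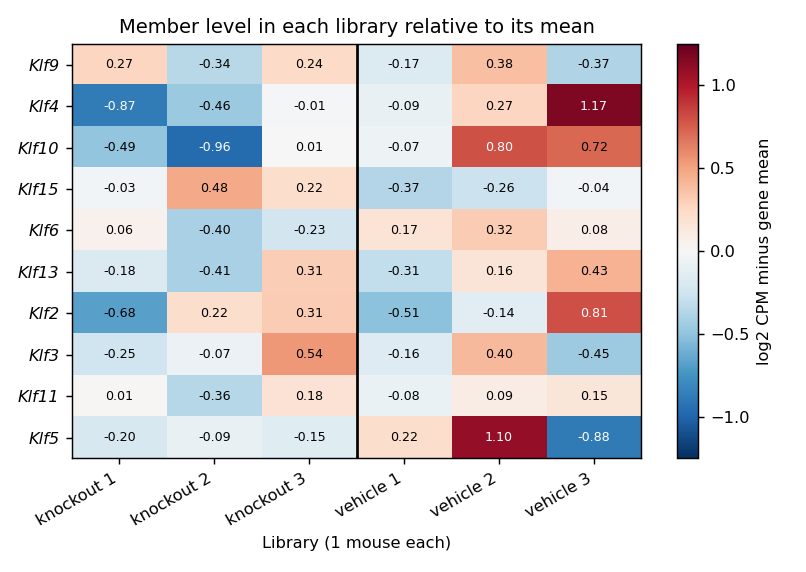
Log2 CPM of each member in each library minus the mean of that gene over the 6 libraries, with knockout libraries left of the black line and vehicle libraries right of it. Klf10 and Klf4 are at or below their mean in the knockout libraries apart from 0.01 for Klf10 in knockout replicate 3, and Klf6 and Klf15 show opposite signs in all libraries.

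Ratios of members within a library do not depend on library scaling. The Klf2 to Klf4 ratio of FPKM was 0.289, 0.405 and 0.317 in knockout libraries and 0.189, 0.190 and 0.197 in vehicle libraries. The vehicle libraries were almost identical in this ratio although their Klf4 levels were 30.6, 40.0 and 73.2 FPKM, and all 3 knockout libraries lay above them. The Klf10 to Klf15 ratio was 0.850, 0.431 and 1.01 in knockout and 1.44, 2.44 and 1.97 in vehicle libraries, so that Klf15 exceeded Klf10 per length in knockout replicates 1 and 2, was level with it in replicate 3, and was below it in all 3 vehicle libraries. The Klf10 to Klf11 ratio was 12.8, 12.0 and 16.1 in knockout and 18.4, 29.6 and 26.8 in vehicle libraries, again without overlap. Of all 45 pairs of members, 14 (31.1%) did not overlap between groups, beside 12.9% of all pairs of genes tested. Pairs share members and are not independent, and all 14 included Klf4, Klf6, Klf10 or Klf15. Ratios without overlap always give a two-sided exact permutation p of 0.1, the smallest that 3 against 3 allows. The p of 0.1 of the 14 pairs (0.321 after Benjamini-Hochberg adjustment over the 45 pairs) thus repeats the absence of overlap. It is not further evidence. The ratios described were chosen after their values were seen.

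**Figure D5:**
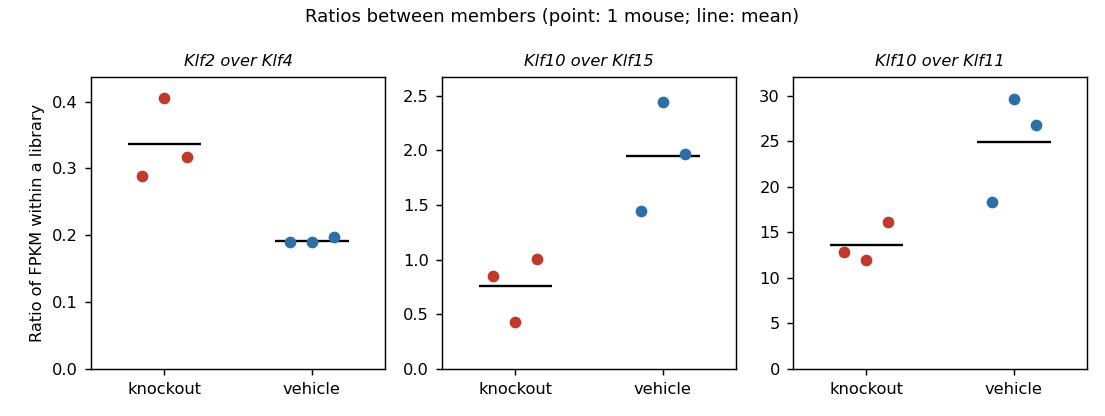
Ratio of FPKM between members within each library, 1 point per mouse and a line at the group mean, knockout left (red) and vehicle right (blue). Klf2 over Klf4 is 0.289 to 0.405 in knockout and 0.189 to 0.197 in vehicle libraries, while both Klf10 ratios are lower in all 3 knockout libraries.

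The family was next set beside lists of genes linked to its members, none of which held a gene that passed the threshold in edgeR. At an unadjusted edgeR p below 0.05, 4.02% of all genes were higher and 3.42% lower. The counts of higher and lower genes at that level were 0 and 12 of 23 for immediate early genes. For the glucocorticoid receptor and genes it induces the counts were 1 and 5 of 20, and for clock genes 1 and 5 of 19. They were 3 and 0 of 14 for lipid and glucose genes, 2 and 0 of 22 for branched-chain amino acid breakdown, 1 and 2 of 14 for transforming growth factor beta genes, 1 and 0 of 11 for endothelial genes, and 0 for the other family factors and for cofactors. The 7 other KLF and SP factors that passed the filter all had estimates above 0 with a median log2 fold change of 0.18, among them Sp1 at 0.31 (SE 0.20), Sp3 at 0.18 (SE 0.16) and Klf7 at 0.20 (SE 0.21). Without vehicle replicate 3, these were 0.17 for Sp1, 0.12 for Sp3 and 0.035 for Klf7, and without vehicle replicate 2 Klf7 was at 0.40. Klf1, Klf8, Klf14, Klf17, Sp5, Sp6, Sp7, Sp8 and Sp9 were below the filter. Among 17 cofactors and regulators of these factors, 6 were higher and 11 lower in estimate, with Fbxw7, the ubiquitin ligase subunit that targets several family members, at -0.29 (SE 0.15), the deacetylases Hdac3 at -0.33 (SE 0.17) and Hdac1 at 0.18 (SE 0.18). Hdac1 was at 0.067 without knockout replicate 2.

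Immediate early genes, with which Klf4, Klf6 and Klf10 are induced in many cells, had 20 of 23 estimates below 0 and a median log2 fold change of -0.77, against 0.02 over all genes. Their summed level was 2315 to 4203 CPM in knockout and 4826 to 6761 CPM in vehicle libraries, without overlap. Atf3, a stress-induced factor, was at -1.53 (SE 0.18; edgeR adjusted p = 0.058), Myc at -1.20 (SE 0.29) and Junb at -0.71 (SE 0.22). DESeq2 called Atf3 and Myc. Among 14 genes of the transforming growth factor beta response, 5 were higher and 9 lower in estimate. The repressor Tgif1 was at -1.80 (SE 0.38; edgeR adjusted p = 0.408), with 5.32, 5.38 and 9.88 CPM in knockout and 12.4, 27.5 and 32.0 CPM in vehicle libraries, and was called by DESeq2. The ligand gene Tgfb2 was at -0.73 (SE 0.19) and the receptor gene Tgfbr2 at 0.56 (SE 0.16), neither called by DESeq2.

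Of 20 genes, the glucocorticoid receptor and genes it induces, 5 were higher and 15 lower in estimate, with a median log2 fold change of -0.23. Their members of smallest p were the ubiquitin ligase Fbxo32 at -0.91 (SE 0.30), the leucine zipper gene Tsc22d3 at -0.69 (SE 0.25) and Cebpd at 0.75 (SE 0.28). Tsc22d3 had 492, 358 and 542 CPM in knockout libraries and 571, 780 and 892 CPM in vehicle libraries, which did not overlap. Cebpd had 6.57, 7.67 and 5.24 CPM in knockout and 3.62, 5.02 and 2.92 CPM in vehicle libraries, without overlap in the other direction. The part of glucocorticoid signalling in the Klf15 value was not tested. Of 19 clock genes, 15 were lower in estimate, with a median log2 fold change of -0.26. Cry2 was at -0.78 (SE 0.25), Bhlhe41 at -0.86 (SE 0.30) and Per3 at 0.59 (SE 0.21).

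Genes of branched-chain amino acid breakdown, the pathway tied to Klf15, had 13 of 22 estimates above 0 and a median log2 fold change of 0.10. The phosphatase Ppm1k, which activates the committed step, was at 0.54 (SE 0.21), Hibch of valine breakdown at 0.39 (SE 0.17) and the alanine aminotransferase Gpt at 0.41 (SE 0.24). When 1 library was left out, Gpt ranged from 0.20 without knockout replicate 2 to 0.68 without vehicle replicate 1. Lipid and glucose genes tied to Klf5 or Klf15 had 12 of 14 estimates above 0 and a median of 0.34. The fatty acid transporter Cd36 was at 0.94 (SE 0.34), Acsl1 at 0.73 (SE 0.27) and the lipase Lpl at 0.92 (SE 0.41). Without knockout replicate 2, Cd36 was at 0.56 and Lpl at 0.60, and without vehicle replicate 1 Lpl was at 1.51. Their summed level was 5342, 8099 and 5317 CPM in knockout libraries and 5717, 3571 and 3932 CPM in vehicle libraries, highest in knockout replicate 2 and, among vehicle libraries, in replicate 1, as for the slow-fibre markers. All 7 genes of the adipocyte list, Car3 among them, had estimates above 0, with a median of 1.37, and each overlapped between groups. Their sum was 3164 to 3889 CPM in knockout and 2636 to 3152 CPM in vehicle libraries. Most of it was Car3, at 2967, 3681 and 3609 CPM in knockout and 2652, 2568 and 3128 CPM in vehicle libraries. Adipoq was at 19.2, 26.7 and 7.77 CPM in knockout and 8.58, 10.4 and 4.17 CPM in vehicle libraries. The sum therefore follows 1 gene and was not read as a level of fat cells. Whether the Car3 reads came from fat cells or from muscle fibres was not tested. With each gene weighted equally, the mean log2 level of the 7 relative to the 6 libraries was 0.84, 1.15 and -0.28 in knockout and -0.24, -0.13 and -1.33 in vehicle libraries, which overlapped. The part of fibre composition and of fat cells in these values and in those of Klf15 was not tested.

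Endothelial genes tied to Klf2 or Klf4 had 4 of 11 estimates above 0 and 7 below, with a median of -0.05. The list was not split into genes that these factors raise and lower, so these counts do not describe their activity. Only Nos3 did not overlap between groups, at -0.31 (SE 0.17). It had 14.4, 17.2 and 20.4 CPM in knockout and 21.1, 22.5 and 20.9 CPM in vehicle libraries. Endothelin Edn1 was at 0.91 (SE 0.40), the adhesion genes Selp at -1.99 (SE 0.90) and Icam1 at -1.01 (SE 0.47), all at low counts with overlapping groups. Without vehicle replicate 2, Selp was at -0.16 and Icam1 at -0.34. Of 10 general endothelial markers 9 overlapped between groups, all but Cldn5, which was lower in all 3 knockout libraries, and 7 estimates were above 0 and 3 below. Their sum was 410 to 486 CPM in knockout and 371 to 466 CPM in vehicle libraries. The 5 markers of smooth muscle, which can also express Klf4, had estimates below 0 throughout, and their sum was 168 to 233 CPM in knockout and 258 to 347 CPM in vehicle libraries, without overlap. Macrophage markers summed to 49.96 to 153 CPM in knockout and 39.0 to 70.4 CPM in vehicle libraries, which overlapped, with knockout replicate 1 the lowest of its group. Of these 9 markers 8 had estimates above 0, 7 of them at an unadjusted p below 0.05 in edgeR, with a median log2 fold change of 1.23. All 6 markers of fibro-adipogenic progenitors had estimates above 0, with a median of 0.80 and 1 at an unadjusted p below 0.05, and summed to 469 to 1250 CPM in knockout and 511 to 666 CPM in vehicle libraries. The part of these cell types in the Klf4, Klf6 and Klf10 values was not tested.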

How the data were processed

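The deposited table gives read counts per gene and library, made by the authors with STAR 2.6.1c and featureCounts from Subread 1.5.1 on mm10, per the submitters' processing notes. Its FPKM values, also deposited by the authors, equalled count over length plus 1 base and over library total. The annotation release and strand setting are not stated in those notes.

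Tests used edgeR 4.0.16 (R 4.3.3): filterByExpr (minimum count 10, minimum total 15), TMM factors, robust quasi-likelihood test, two-sided, Benjamini-Hochberg over 15583 genes, threshold 0.05. CPM use TMM-scaled library sizes, and r values log2 CPM with a prior count of 2. Standard errors come from the F statistic. A count of 3, the floor, equalled 0.0752 to 0.0984 CPM. The procedure was also run on simulated counts with known changes, drawn with the dispersions of the same fit. The share of changes detected is not given here, so the power of the test is not shown.

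Alternatives used DESeq2 1.42.0, limma 3.58.1, other scalings, filters and FPKM pseudocounts, and left out each library. Replicates are separate mice and unpaired.

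The members and gene lists were chosen with earlier results of these data known. Named were all members, Vdr and, per list, the 3 genes of smallest p where none passed. Ratios, Nos3, Adipoq and the cell type markers under the other observations were picked after their values were seen.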

Additional observations from a re-analysis of the deposited data

How the results depend on the processing

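No alternative called a member at its adjusted threshold, and Klf4, Klf6, Klf10 and Klf15 kept their direction under every scaling, filter and test tried and without each library. The count of all genes called was 109 with DESeq2, 29 without a low-count filter, 4 with DESeq2 size factors in edgeR, 4 with limma-voom and sample quality weights, 7 at an adjusted p below 0.1 and 0 to 24 when 1 library was left out. With sample quality weights 4 members were lower in estimate, and Klf2, Klf11 and Klf13 turned to 0.11, 0.023 and 0.043. The median log2 fold change over all genes was 0.013 in that fit. The causes were not tested. When 1 library was left out, the log2 fold change ran from -0.40 to 0.33 for Klf2, -0.14 to 0.40 for Klf3, -0.87 to 0.082 for Klf5, -0.049 to 0.34 for Klf9 and -0.22 to 0.039 for Klf11. It ran from -1.20 to -0.51 for Klf4, -1.24 to -0.75 for Klf10, -0.51 to -0.27 for Klf6, 0.32 to 0.57 for Klf15 and -0.42 to -0.010 for Klf13. Members at an unadjusted p below 0.05 numbered 1 to 3 in those fits, beside 3.69% to 12.1% of all genes (594 to 1940 genes). Without knockout replicate 2 the only such member was Klf10, beside 4.63% of all genes. No paired analysis was possible because the labels give no replicate numbers shared between groups. Klf5, at 16 to 60 reads, was limited by depth and fell below the filter of 1 CPM in 3 libraries.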

Other observations

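Some vascular genes outside the family had lower estimates in knockout. The tight junction gene Cldn5, a marker of endothelium, had 6.46, 7.09 and 7.37 CPM in knockout libraries and 10.8, 13.5 and 15.1 CPM in vehicle libraries, giving -0.91 on the log2 scale (SE 0.20; edgeR adjusted p = 0.408, DESeq2 adjusted p = 0.0143). The smooth muscle genes Cnn1, Acta2 and Tagln were at -1.60 (SE 0.41), -0.76 (SE 0.20) and -0.61 (SE 0.18), of which DESeq2 called Cnn1 alone. Tagln was nearly constant in knockout libraries at 44.9, 45.0 and 44.0 CPM, against 53.3, 78.0 and 72.9 CPM in vehicle libraries. Cldn5 was not typical of the 10 endothelial markers, of which 7 had estimates above 0 and 3 below. Among the 7 were Kdr at 0.37 (SE 0.27) and Tie1 at 0.21 (SE 0.19), with overlapping groups.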
